A study of Drosophila melanogaster with 4 samples.

Results

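Mating with a wild-type male was read from whole females of the wild-type Canton S stock of Drosophila melanogaster, set against virgin females of the same stock, on an Affymetrix Drosophila GeneChip. The members described here are all probe sets whose highest value over the 4 deposited columns reached the median of all values, which kept 7345 of 13965 probe sets that are not controls. Of the 7345, 6534 carried 1 gene symbol and stood for 6201 genes, 634 carried no symbol and 177 carried several. Genes of digestion, muscle and immunity, 115 of the 6201, were set aside and serve only as a reference, so that the other 6086 genes and the unnamed probe sets could be described. Of the 6201 genes, 2125 bear only an annotation number as symbol.

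The wild-type-mated group received sperm and accessory gland proteins from Canton S males and was frozen 1 to 3 h after mating. The virgin group was not mated, and its labels give the same text on freezing without a time of its own. Females of both groups were 3 to 4 days old and were kept at 25 °C in 12 h of light and 12 h of dark. The 2 remaining groups are shown beside them. Females of the first were mated to DTA-E males, which lack sperm and the accessory gland proteins of the main cells, 96% of the gland's secretory cells. Females of the second were mated to spermless males, sons of bw sp tud1 mothers, whose accessory gland proteins are intact; the title of this sample names tudor males as the parents instead. Per the labels, a pool of 50 flies per treatment gave 2 RNA extractions and 4 chips, and the value table holds 1 column per treatment.

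A mated Drosophila female begins to lay eggs, stores sperm, refuses further males for a time and changes her feeding and gut physiology. Seminal fluid proteins set off part of this programme within hours, and the reproductive tract, fat body, gut and nervous system are known to take part. The metabolic genes described below serve glucose and trehalose use, the citrate cycle, the respiratory chain, fat storage and the removal of foreign compounds.

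With 1 column on each side no test could be made, and every difference below is the wild-type-mated value minus the virgin value. Values are on a log scale read as log2, where 0 is the median kept probe set of a column and a difference of 1 is 2-fold. Over 294 genes with more than 1 kept probe set, their differences scattered with an SD of 0.09 within a gene, which covers neither differences between pools of flies nor between chips. In RNA of whole flies, fewer cells of a type and less RNA per cell cannot be told apart. The deposited columns correlated at 0.993 between wild-type-mated and virgin. Their SD was 1.03 in the wild-type-mated and 1.07 in the virgin column, so the former was slightly narrower, and over 4 equal bands of level the median difference went from 0.04 in the lowest band to -0.03 in the highest. Probe sets for foreign RNA with no target lay at -1.74 in the virgin and -1.67 in the wild-type-mated column, which marks the level of background. The 3' minus 5' value of the actin control was 1.95 and 1.97, of eIF-4a 1.70 and 1.78 and of GAPDH 1.79 and 1.84, in virgin and wild-type-mated order. The DTA-E column stood apart in the same controls, at 2.26, 1.97 and 1.97, and the part of this in the values after DTA-E males given below was not tested. As a check of the labels, 9 female markers (yolk protein, eggshell and oocyte genes) lay between 1.14 and 5.19 in virgin females, whereas of 15 male markers on the array only the testis gene Mst98Ca passed the filter. The accessory gland transcript Acp26Aa of males was at -1.95 in virgin and -1.96 in wild-type-mated females. SP, the sex peptide gene, was at -1.26 and -1.19, above the foreign probe sets in both columns, and the differences of all 15 male markers lay between -0.00 and 0.11.

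Most genes lay close to 0 after wild-type mating, and the genes that did not were mainly lower. Over all 6201 genes, 6128 differed by less than 1.5-fold. At least 2-fold, 3 genes were higher (0.0484%) and 26 lower (0.419%). At least 1.5-fold, 11 were higher (0.177%) and 62 lower (1%). Outside digestion, muscle and immunity these counts were 3 higher (0.0493%) and 13 lower (0.214%) at 2-fold, and 7 higher (0.115%) and 41 lower (0.674%) at 1.5-fold. The 41 lower genes had a median level of 0.98 in virgins, 0.48 with DTA-E mates, 0.58 with spermless mates and 0.11 with wild-type mates. Their median was thus highest without mating and lowest after wild-type males, with both other mated columns between, the virgin and wild-type-mated ends being fixed by the choice. The 3 genes just inside the 2-fold limit on the lower side were ND-B8 (-1.12), CG4377 (-1.10) and the amylase gene Amy-d (-1.11), and the 3 just outside were Cyp6d5 (-0.99), smp-30 (-0.98) and CG15043 (-0.98).

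**Figure D1:**
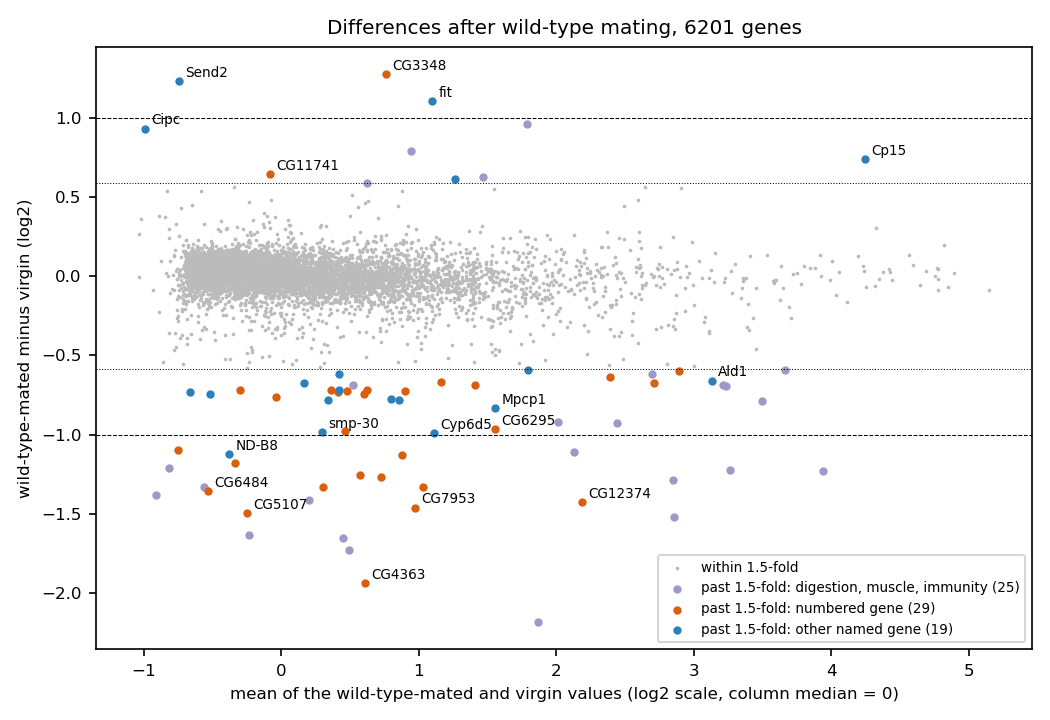
Difference between wild-type-mated and virgin females (log2, vertical axis) against the mean of both values (log2 scale with the column median at 0, horizontal axis), 1 point per gene. Dotted lines mark 1.5-fold and dashed lines 2-fold; 62 genes lie at or below the lower dotted line and 11 at or above the upper one.

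Of the 41 genes past 1.5-fold lower outside digestion, muscle and immunity, 27 were known only by number. Of the 2125 numbered genes, 27 lay past 1.5-fold on the lower side (1.27%, beside 1% of all genes). On the higher side 2 did (0.0941%, beside 0.177% of all genes). Past 2-fold the counts were 12 lower (0.565%, beside 0.419% of all genes) and 1 higher (0.0471%, beside 0.0484%). Of the 3961 named genes outside digestion, muscle and immunity, 14 lay past 1.5-fold on the lower side (0.353%) and 5 on the higher side (0.126%), and past 2-fold 1 was lower (0.0252%) and 2 were higher (0.0505%). Annotation numbers are in none of the set-aside lists, so numbered genes were not screened in this way, unlike the named genes. With no gene set aside, 98.6% of the 2125 numbered and 98.9% of the 4076 named genes differed by less than 1.5-fold. No source used here gives these numbered genes a function, so only their levels and neighbours are described. No DNA or protein sequence was used here.

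CG4363 had the largest difference of them. Its value was 1.57 in virgins, 0.55 with DTA-E mates, 0.50 with spermless mates and -0.36 with wild-type mates, so the last column was 3.83-fold below the first. The virgin column stood highest, the columns of both kinds of spermless mating were nearly equal, and the wild-type-mated column stood lowest. CG5107 had the same order, with 0.50 in virgins, -0.25 with DTA-E mates, -0.20 with spermless mates and -0.99 with wild-type mates. CG10910 was 1.36 in virgin females, 0.74 and 0.72 in the DTA-E and spermless columns and 0.09 after wild-type males. CG13323 was 1.44, 0.88, 1.06 and 0.31 in that order, again highest in virgin and lowest in wild-type-mated females.

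CG12374 and CG6295 had another order. CG12374 stood at 2.90 in virgins, 2.94 with DTA-E mates, 3.06 with spermless mates and 1.47 with wild-type mates. Its first 3 columns lay within 0.16 of the virgin value, and only the wild-type-mated column was low, by -1.43. CG6295 stood at 2.04, 2.23, 2.37 and 1.07 in the same sequence of columns, a difference of -0.96 from virgin to wild-type-mated females. CG14125 was at 0.25 in virgins, -0.22 with DTA-E mates, 0.09 with spermless mates and -0.93 with wild-type mates, where it was again lowest.

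Several of the lower genes had only 1 of their probe sets above the filter. CG6484 was 0.15 in virgin and -1.21 in wild-type-mated females (-1.36) by its kept probe set, whereas its other probe set, left out as weak, read -1.10 and -1.09. CG7953 differed by -1.46 by the kept probe set and by -0.02 by a weak one, and CG4377 by -1.10 and by 0.06. Without the filter all probe sets of a gene were averaged, and each column was centred on the median of all its non-control probe sets. The differences were then -0.70 for CG6484, -0.77 for CG7953 and -0.55 for CG4377.

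**Figure D2:**
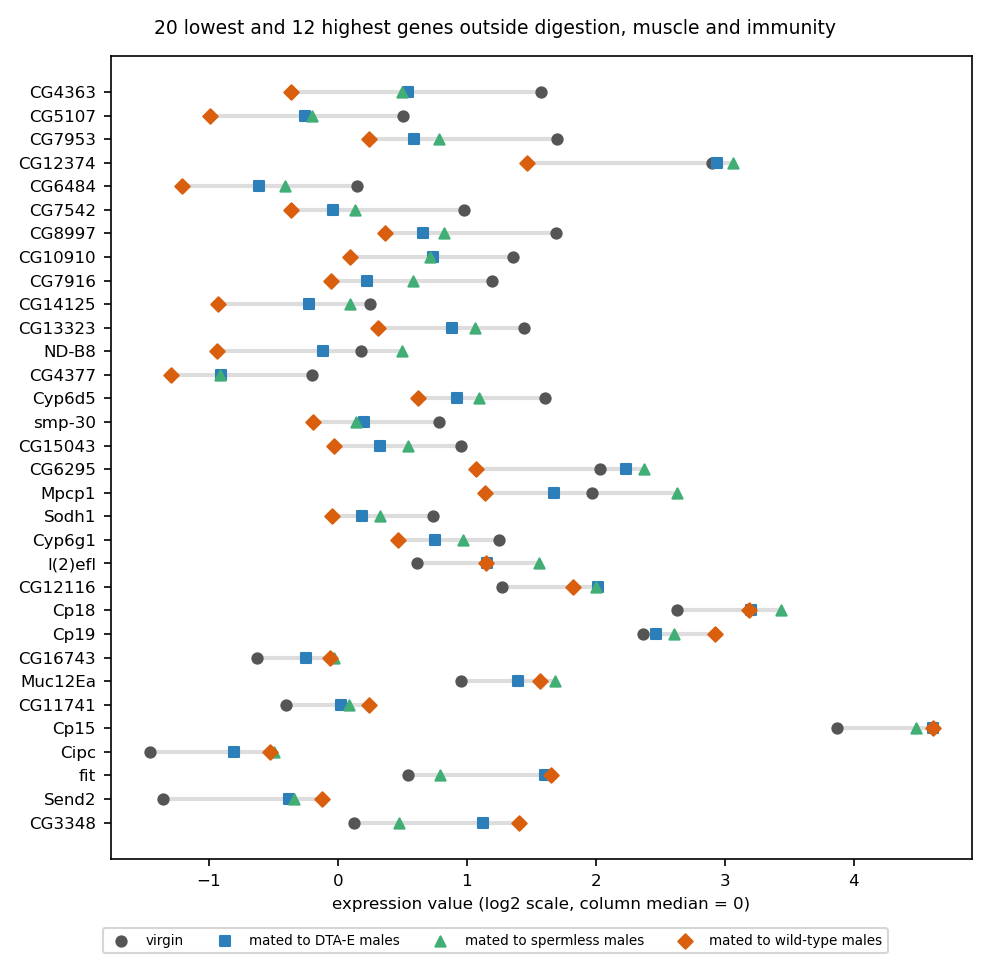
Values of the 20 lowest and 12 highest genes outside digestion, muscle and immunity in all 4 columns (log2 scale with the column median at 0), 1 row per gene, 1 marker per column. CG4363, CG5107 and CG10910 descend from virgin over both other matings to wild-type-mated females, while CG12374 is low in the wild-type-mated column only, at 1.47 against 2.90 to 3.06.

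Some lower genes lay next to each other on the chromosomes. In the order of protein-coding genes in RefSeq, 9 runs of adjacent genes past 1.5-fold, in each case lower, held 22 of the 62 lower genes. The longest runs had 3 genes. Whether this number of runs is unusual was not tested. Most of the runs include digestive genes: the maltases, the trypsins, the lysozymes, the Jonah proteases Jon65Aiii and Jon65Aiv, and Jon74E with CG7542. The remaining runs consist of numbered genes. Adjacent genes of 1 family can share probe sequence, and how far that happens here was not tested.

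The longest of these runs was CG8997, CG7916 and CG7953. CG8997 was 1.69 in virgins, 0.66 with DTA-E mates, 0.82 with spermless mates and 0.36 with wild-type mates. CG7916 was 1.20, 0.23, 0.58 and -0.06, and CG7953 was 1.70, 0.59, 0.78 and 0.24 in the same order. All 3 genes shared the order virgin, spermless, DTA-E, wild-type from high to low, with differences of -1.33, -1.25 and -1.46. The next gene, CG7968, read -0.54 in virgin and -0.99 in wild-type-mated females, a difference of -0.45 at a lower level. CG7968 passed the filter through the virgin column only.

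CG4363 was adjacent to CG4377, which read -0.20 in virgins and -0.91, -0.91 and -1.30 with DTA-E, spermless and wild-type mates. CG4377 passed the filter through the virgin column only. It left the 1.5-fold call without the filter and under the filter at the 75th percentile, so this pair rests on the filter. CG10911 and CG10912 were adjacent as well, with differences of -0.64 and -0.73, and their measured neighbours Muc55B (-0.06) and CG34386 (0.13) were near 0. CG5506 (-0.69) and CG16775 (-0.72) formed the last pair, and Tsp74F, the nearest kept gene on 1 side, differed by -0.08. CG7542, beside the protease gene Jon74E, was 0.97 in virgins, -0.04 with DTA-E mates, 0.13 with spermless mates and -0.36 with wild-type mates.

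**Figure D3:**
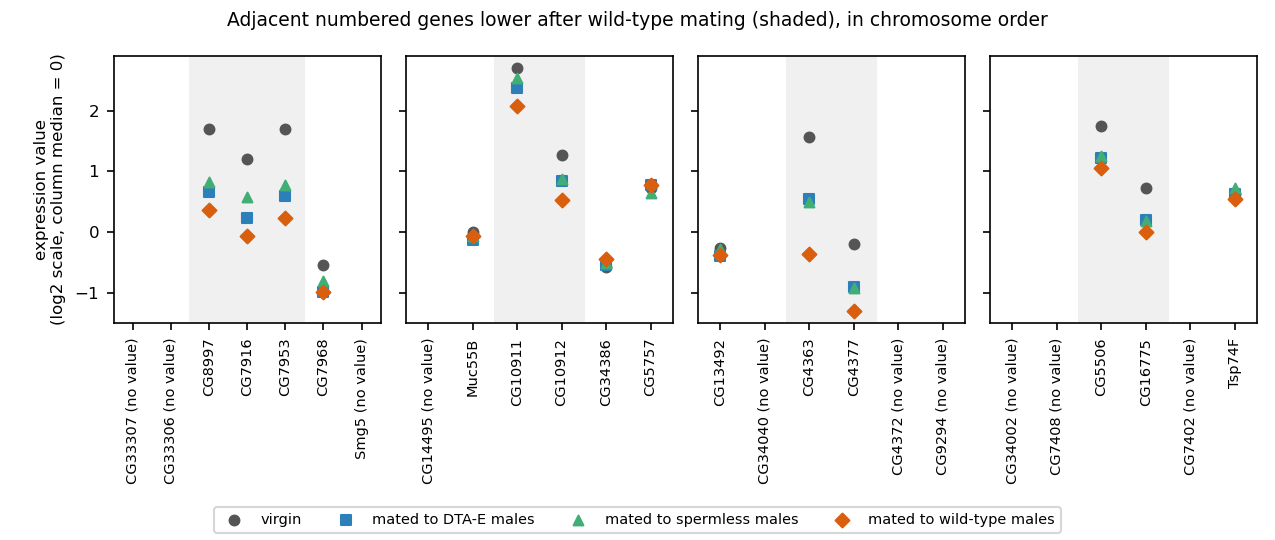
Values in the 4 columns (log2 scale with the column median at 0) of the 4 runs of adjacent numbered genes, shaded, and of up to 2 flanking genes on each side, in chromosome order. In each shaded gene the virgin marker is highest and the wild-type-mated marker lowest, as for CG8997 with 1.69 and 0.36, while the flanking genes Muc55B and Tsp74F show markers close together and the flanking gene CG7968 spans -0.54 to -0.99.

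The higher side was short. CG3348, with no named function here, was 0.13 in virgins, 1.13 with DTA-E mates, 0.47 with spermless mates and 1.40 with wild-type mates. fit, a fat body gene expressed mainly in females, was 0.54, 1.61, 0.79 and 1.65 in the same order. In both genes the spermless column lay nearer to virgin than to wild-type-mated females. Send2, a protease gene of the spermathecal secretory cells, was -1.36 in virgin females against -0.38, -0.34 and -0.13 in the 3 mated columns, close to one another. It passed the filter through the mated columns only, and its virgin value lay not far above background. Under a filter at the 75th percentile Send2 left the 2-fold and the 1.5-fold call. CG11741 was -0.41 in virgin females and 0.02, 0.08 and 0.24 in the mated columns, and was 1.56-fold higher after wild-type males. The eggshell genes Cp15, Cp18 and Cp19 differed by 0.74, 0.55 and 0.56, and in each the virgin column was the lowest. CG12116 was 1.27 in virgins, 2.02 with DTA-E mates, 2.00 with spermless mates and 1.82 with wild-type mates, so that the wild-type-mated column was the lowest of the 3 mated ones. CG16743 was -0.62, -0.25, -0.03 and -0.06.

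Uhg1, a host gene of small nucleolar RNAs, stood apart in the wild-type-mated column. It was -1.10 in virgins, -1.19 with DTA-E mates, -1.44 with spermless mates and -0.56 with wild-type mates. Uhg1 passed the filter through the wild-type-mated column only, so the filter itself favoured that column as the highest. Its first 3 values lay not far above background, and the difference of 0.54 stayed short of 1.5-fold. dpr3, of the defective proboscis extension response family, was 2.46, 2.33, 2.33 and 2.74, and the clock repressor gene cwo was -0.48, -0.37, -0.40 and -0.17, both highest after wild-type males. The dpr3 value came from a probe set of the _f_at kind, which can match more than 1 transcript. Its other probe sets, left out as weak, read -1.40 and -1.38 in virgins. Without the filter, and so with weak probe sets averaged in, dpr3 and cwo differed by 0.11 and 0.16.

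A larger share of the probe sets without a symbol was higher than of the genes, whose values are means over their probe sets. Past 2-fold, 5 of 634 probe sets with no symbol were higher (0.789%, beside 0.0484% of all genes). On the lower side 1 was (0.158%, beside 0.419%). At 1.5-fold, 11 were higher (1.74%, beside 0.177%) and 2 lower (0.315%, beside 1%). Of the 177 probe sets with several symbols, 2 lay past 1.5-fold on the lower side (1.13%) and 0 on the higher side, and 0 lay past 2-fold. The probe set 143609_at was 0.30 in virgins, -0.70 with DTA-E mates, 0.27 with spermless mates and 1.40 with wild-type mates. 141374_at was 0.00, -0.71, 0.89 and 1.10 in that order, and 143443_at was 0.06, -0.87, 0.34 and 1.10. In these 3 the DTA-E column was the lowest and the wild-type-mated column the highest. Immunity genes were set aside by symbol, so probe sets without a symbol were not screened for them. Of the 47 set-aside immunity genes, 3 were past 1.5-fold higher: Mtk, DptB and BomS2. In each of these genes the DTA-E column was the lowest, with Mtk at 1.31, -0.11, 1.36 and 2.27. The wild-type-mated column was highest in Mtk and DptB. Whether the unnamed probe sets measure immunity genes was not tested.

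A pair of consecutive identifiers behaved alike. 147430_at was -0.14 in virgins, -0.36 with DTA-E mates, 0.51 with spermless mates and 0.63 with wild-type mates, and 147431_at was 0.65, 0.59, 1.46 and 1.68. 143401_at followed another order, with -0.50 in virgin females and 0.35, 0.38 and 0.57 in the mated columns, all above virgin. On the lower side 151533_at was 0.32 in virgin females and -0.54, -0.36 and -0.70 in the mated columns. Which genes these probe sets measure was not analysed here, and identifiers ending in _s_at or _f_at mark probes that can match more than 1 transcript.

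**Figure D4:**
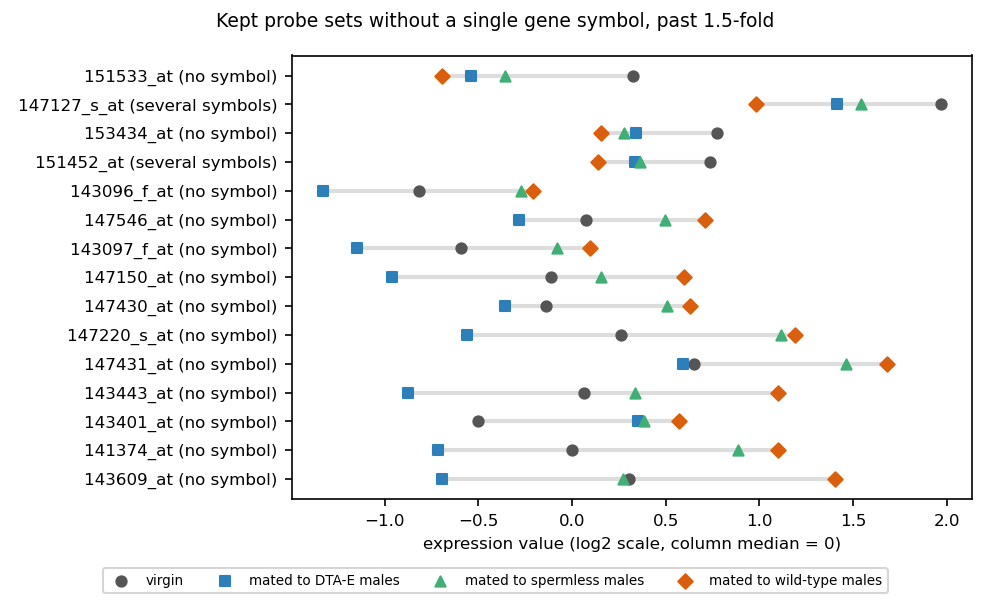
Values in the 4 columns (log2 scale with the column median at 0) of the kept probe sets with no symbol or several symbols that differed by at least 1.5-fold between wild-type-mated and virgin females. Most of the 11 higher probe sets are lowest after DTA-E males and highest after wild-type males, with 143609_at at -0.70 and 1.40, whereas 143401_at is above virgin in all mated columns.

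Among transporters nearly all differences were small. The 8 lists of named transporters held 105 kept genes, of which 102 lay within 0.3 of 0, 1 was at least 1.5-fold lower and 0 were at least 1.5-fold higher, and the median was 0.03 beside 0.01 over all genes. That 1 gene was Mpcp1, a mitochondrial phosphate carrier, with 1.97 in virgins, 1.67 with DTA-E mates, 2.63 with spermless mates and 1.14 with wild-type mates. It was highest after spermless males and lowest after wild-type males. Mpcp2, the paralog, differed by -0.04, and the adenine nucleotide carrier gene sesB by -0.08.

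The trehalose transporter gene Tret1-1 was 1.24 in virgins, 0.83 with DTA-E mates, 1.32 with spermless mates and 0.70 with wild-type mates, a difference of -0.53. Without the filter, with a weak probe set averaged in, Tret1-1 differed by -0.31. Its neighbour in name Tret1-2 differed by 0.14, and the other sugar carriers sut1, Glut1, nebu and Slc45-1 by 0.05 to 0.30, so 5 of 6 members were higher. Slc45-1, of the sucrose transporter family, was -0.97 in virgin females and -0.54, -0.61 and -0.67 in the mated columns. Orct2, an organic cation transporter gene, was -0.72 in virgin females against -0.43, -0.55 and -0.40, with all mated columns above virgin. Both Slc45-1 and Orct2 were below the filter level in virgin females. Orct2 passed the filter through mated columns only and Slc45-1 through the DTA-E column only, so the filter itself favoured a virgin value below them.

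Amino acid transporters had 7 higher genes of 9 and a median of 0.08, led by mnd (0.19), a subunit gene of a light-chain type carrier. The 33 ion pumps, exchangers and channels had a median of 0.06 and reached from -0.15 for the sodium proton exchanger gene Nha1 to 0.18 for the chloride channel gene ClC-a. ABC transporters (median -0.01 over 8 genes) and metal transporters (0.01 over 14) lay around 0. No transporter list had a median past 0.12.

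Enzymes of carbohydrate use were mostly lower, by amounts below 1.5-fold for all but Ald1. Glycolysis and gluconeogenesis had 15 lower genes of 16, 1 past 1.5-fold, and a median of -0.28. All 12 kept genes of glycogen, trehalose, galactose and pentose phosphate use were lower, 0 past 1.5-fold, with a median of -0.21. The citrate cycle with malic enzymes had 14 lower genes of 16, 0 past 1.5-fold, and a median of -0.21. Over all genes 47.1% were lower, and 59.7% in the highest of the 4 level bands, where these lists have their median level. After removal of the trend with level the 3 medians were -0.25, -0.19 and -0.18.

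Ald1, the aldolase gene, was 3.46 in virgins, 3.19 with DTA-E mates, 3.62 with spermless mates and 2.80 with wild-type mates, which is 1.58-fold lower. It was -0.50 after quantile normalization and then short of 1.5-fold. Gapdh1, a glyceraldehyde phosphate dehydrogenase gene, was 3.68, 3.46, 3.91 and 3.22, and Eno, the enolase gene, 2.65, 2.50, 2.71 and 2.29. All 3 were highest after spermless males and lowest after wild-type males. Pepck1, which encodes the committing enzyme of gluconeogenesis, had another order, with 1.18 in virgins, 0.89 with DTA-E mates, 0.57 with spermless mates and 0.79 with wild-type mates. Hex-C, a hexokinase gene, differed by -0.37 and Hex-A, its paralog, by -0.03. The pyruvate carboxylase gene PCB (0.09) was the only higher member.

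Tps1, which makes trehalose, the blood sugar of flies, was 2.41 in virgins, 2.39 with DTA-E mates, 2.41 with spermless mates and 2.06 with wild-type mates. Its first 3 columns were nearly equal, and the wild-type-mated column was low by -0.35. Treh, which splits trehalose, differed by -0.21, the glycogen phosphorylase gene Glyp by -0.25 and the glycogen synthase gene Glys by -0.19, so genes for making and for breaking down the stores were both lower.

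Of the citrate cycle, SdhB, a succinate dehydrogenase subunit gene, was 2.47 in virgins, 2.27 with DTA-E mates, 2.55 with spermless mates and 1.98 with wild-type mates. The isocitrate dehydrogenase subunit genes Idh3g (-0.43) and Idh3a (-0.37) and the aconitase gene mAcon1 (-0.33) followed. The malic enzyme genes Men (-0.07) and Men-b (-0.08) differed little.

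The nuclear genes of the respiratory chain, a list added after values were seen, had 45 lower members of 47, 1 past 1.5-fold, and a median of -0.27. The list's median level was 2.12 in virgins, 2.01 with DTA-E mates, 2.32 with spermless mates and 1.88 with wild-type mates. ND-B8, a complex I subunit gene, was the exception in size, with 0.18, -0.12, 0.49 and -0.94. The other complex I genes ND-ASHI, ND-B14 and ND-MWFE differed by -0.42 to -0.43. Paralogs of chain subunits, marked by a final L, were low in level, and all 8 kept members were higher, by a median of 0.10, or 0.07 with the trend with level removed.

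Muscle and gut transcripts were also low in the wild-type-mated column. The muscle list had 17 lower genes of 23 and a median of -0.09, and the flight muscle genes Act88F (-1.65), TpnC4 (-1.38) and fln (-1.33) were past 2-fold. The digestion list had 36 lower genes of 45 and a median of -0.37, with 18 lower genes past 1.5-fold. The muscle list's median level was 0.68 in virgins, 0.67 with DTA-E mates, 1.34 with spermless mates and 0.50 with wild-type mates. The part of either tissue in the differences of metabolic genes was not tested.

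**Figure D5:**
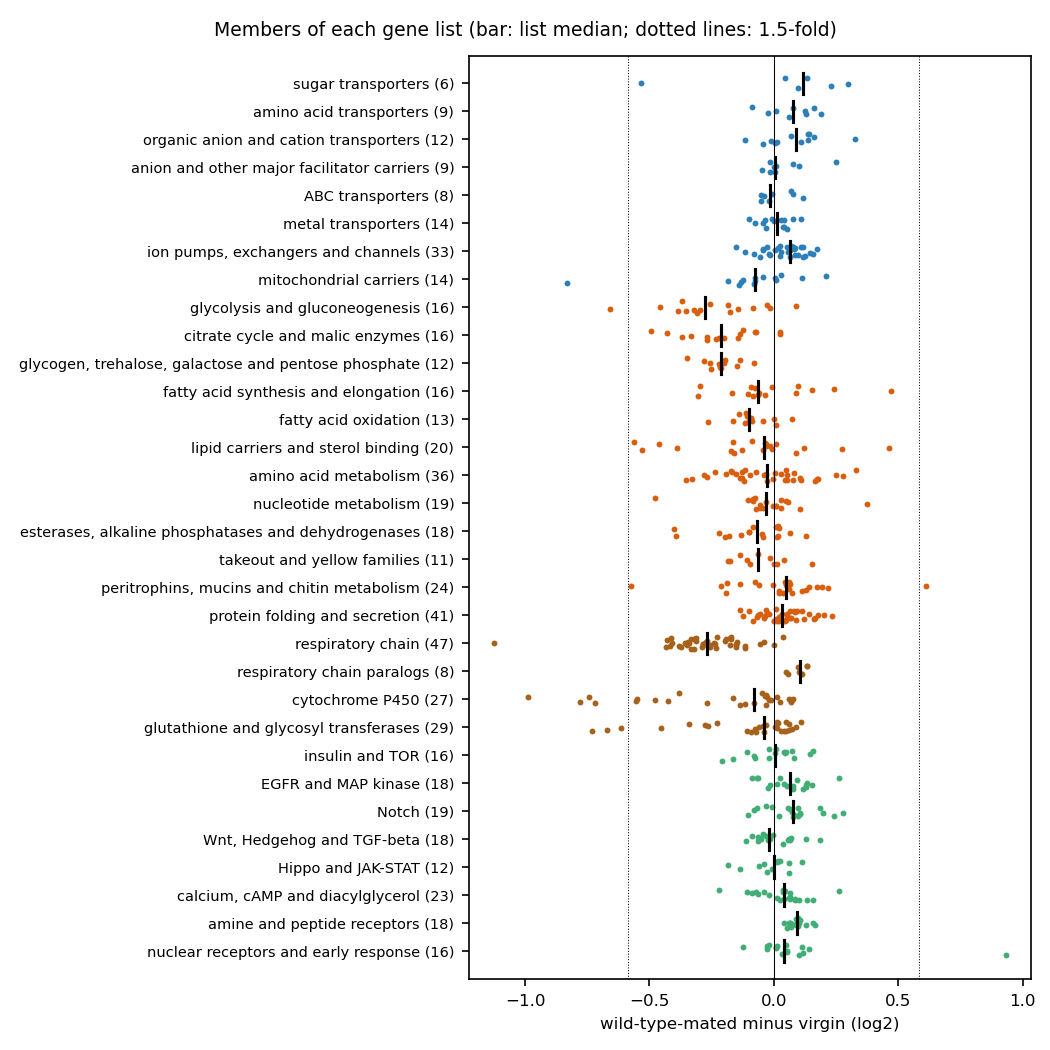
Wild-type-mated minus virgin difference (log2, horizontal axis) of each kept member of the transporter, metabolism and signalling lists, with the number of members in brackets, list medians as bars and 1.5-fold as dotted lines. The bars of glycolysis (-0.28), citrate cycle (-0.21), carbohydrate stores (-0.21) and respiratory chain (-0.27) lie left of 0, and those of the signalling lists lie between -0.02 and 0.09.

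Fat metabolism was mixed. Fatty acid synthesis and elongation had 11 lower genes of 16 and a median of -0.06, and 0 passed 1.5-fold in either direction. bond, which encodes an elongase of very long fatty acids, was -0.47 in virgins, 0.00 with DTA-E mates, -0.20 with spermless mates and 0.00 with wild-type mates. The fatty acid synthase gene FASN1 differed by 0.24 and was above virgin after DTA-E and wild-type males but not after spermless males. Of the genes of the steps before it AcCoAS, for acetyl-CoA synthetase, was higher by 0.15, whereas lower values were found for ATPCL, for ATP citrate lyase, by -0.30 and ACC, for acetyl-CoA carboxylase, by -0.17. The probe sets of ACC disagreed, with 0.04 for the weaker and -0.38 for the stronger one. Fatty acid oxidation had 10 lower genes of 13 and a median of -0.10, led by the carnitine palmitoyltransferase gene whd (-0.26).

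Lipid carriers spread more widely around a median of -0.04, with 15 of 20 lower. Acbp5 and Acbp2, for acyl-CoA binding proteins, differed by -0.56 and -0.53. Acbp5 was 2.66 in virgins, 2.53 with DTA-E mates, 2.29 with spermless mates and 2.10 with wild-type mates. Lsd-1, a perilipin gene of lipid droplets, was 0.38, 1.20, 0.88 and 0.84, above virgin in all mated columns. Lsp2, which encodes a storage protein of the larval blood, was 1.79, 1.57, 1.20 and 1.33.

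Outside digestion, muscle and immunity, the named genes past 1.5-fold lower were, apart from smp-30, genes of enzymes, of a carrier or of a respiratory chain subunit. smp-30, of the regucalcin family, was 0.79 in virgins, 0.20 with DTA-E mates, 0.14 with spermless mates and -0.20 with wild-type mates. Sodh1, a sorbitol dehydrogenase gene, was 0.73, 0.19, 0.33 and -0.05, and AOX1, an aldehyde oxidase gene, 1.18, 0.70, 0.81 and 0.41. In these genes all mated columns lay below virgin and the wild-type-mated column was lowest. Had1, a hydroxy acid dehydrogenase gene, differed by -0.59, at the edge of 1.5-fold. Among cytochrome P450 genes, which often act on foreign compounds, 4 of 27 were past 1.5-fold lower, and among glutathione and glycosyl transferases 3 of 29, namely GstT4 (-0.67), GstE3 (-0.62) and Ugt35C1 (-0.73). These counts stand beside 1% of all genes, but both lists were added after values were seen, so the counts were known beforehand. Ugt35C1 passed the filter through the virgin column only. Of the genes counted, Ugt35C1 and Cyp28d1 left the 1.5-fold call under the filter at the 75th percentile. The P450 list had 21 lower genes of 27 and a median of -0.08, which was -0.37 under a filter at the 75th percentile and -0.20 after subtraction of the foreign control level. The transferase list had 16 lower genes of 29 and a median of -0.04.

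Amino acid and nucleotide metabolism lay close to 0 as lists, with medians of -0.03 each. Gnmt, which uses S-adenosylmethionine to methylate glycine, was -0.93 in virgins, -0.94 with DTA-E mates, -0.84 with spermless mates and -0.60 with wild-type mates. Gnmt passed the filter through the wild-type-mated column only, so the filter itself favoured a higher value there. Sam-S, which makes S-adenosylmethionine, differed by 0.25. Ddc and ple, the genes of dopamine synthesis, differed by 0.28 and 0.18. P5cr-2 (-0.35), of proline synthesis, and the aminotransferase gene Agxt (-0.33) were at the lower end. Of pyrimidine and purine genes, su(r), for dihydropyrimidine dehydrogenase, was -0.29 in virgin females and 0.05, 0.04 and 0.09 in the mated columns, and Prat2, of the first step of purine synthesis, was 0.03, -0.02, -0.20 and -0.45.

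Miox, which breaks down myo-inositol, was 0.31 in virgins, 0.70 with DTA-E mates, 0.90 with spermless mates and 0.69 with wild-type mates. The mucin gene Muc12Ea was 0.96, 1.40, 1.68 and 1.57, a difference of 0.61 that was 0.58 and short of 1.5-fold without the filter, and Muc68D, another mucin gene, was 0.57, 0.34, 0.32 and 0.00. Protein folding and secretion genes were higher in 29 of 41 cases by a median of 0.03. The translocon subunit genes Sec61gamma (0.23) and Sec61beta (0.20) were highest among them, whereas Sec61alpha differed by -0.05. Sec61gamma was 1.84 in virgins, 2.04 with DTA-E mates, 1.83 with spermless mates and 2.07 with wild-type mates.

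Signalling genes lay mostly within 0.3 of 0. The 8 signalling lists held 139 kept genes, 138 of them within 0.3 of 0, with 94 higher and 45 lower and a median of 0.05. At 1.5-fold 1 was higher and 0 were lower. That gene was Cipc, named after a vertebrate protein that binds CLOCK, at -1.46 in virgins, -0.81 with DTA-E mates, -0.49 with spermless mates and -0.53 with wild-type mates. The virgin value lay near background, and a second Cipc probe set, left out as weak, read -0.89 and -0.74 in virgin and wild-type-mated females. Without the filter, with both probe sets averaged, the difference was 0.51, short of 1.5-fold. Under a filter at the 75th percentile Cipc was left out, so this call rests on the filter.

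All 18 kept amine and peptide receptor genes were higher, between 0.04 and 0.17, with a median of 0.09, or 0.06 with the trend with level removed. Their median level of -0.37 lay at the edge between the lowest level band, where 1019 of 1551 genes were higher with a median of 0.04, and the next, where 918 of 1550 were higher with a median of 0.02. The foreign probe sets that mark background were also higher, -1.67 against -1.74, and the part of background in these values was not tested. On the array 58 receptor genes were present, and those not among the 18 did not pass the filter. Octbeta3R, an octopamine receptor gene, was 0.54 in virgins, 0.57 with DTA-E mates, 0.61 with spermless mates and 0.71 with wild-type mates. TyrRII, a tyramine receptor gene, differed by 0.16 and the short neuropeptide F receptor gene sNPF-R by 0.10. sNPF-R and the receptor gene moody reached the filter level in the wild-type-mated column only, so the filter itself favoured higher values there.

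In the Notch list 14 of 19 were higher with a median of 0.08, beside 3283 of 6201 among all genes and 918 of 1550 in the level band of this list. The co-activator gene mam was 2.23 in virgins, 2.10 with DTA-E mates, 2.15 with spermless mates and 2.51 with wild-type mates, and the glycosyltransferase gene fng differed by 0.24. fng passed the filter through the spermless column only. The mam value came from a probe set of the _f_at kind, and without the filter, with a weak probe set averaged in, the difference was 0.15. In the EGFR and MAP kinase list 13 of 18 were higher with a median of 0.06, with sl, a phospholipase C gamma gene, at 0.26 and the receptor gene Egfr at 0.13; this list lay in the same level band. Insulin and TOR genes had a median of 0.01, with the AMP kinase subunit genes SNF4Agamma (-0.21) and alc (-0.16) lowest and the kinase gene Sik3 (0.16) highest. A weak SNF4Agamma probe set, left out by the filter, differed by 0.11. Without the filter, with columns centred on all non-control probe sets, the gene differed by -0.08. The lists of Wnt, Hedgehog and TGF-beta (-0.02), of Hippo and JAK-STAT (0.00) and of calcium, cAMP and diacylglycerol (0.04) lay near 0. sra, a regulator of calcineurin, was the lowest of the calcium list at -0.22, and the ecdysone receptor gene EcR differed by 0.14. Also without the filter, with weak probe sets averaged in, Egfr differed by 0.04, EcR by 0.06 and the channel gene ClC-a by 0.07. Whether differences of this size exceed the variation between pools was not tested.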

How the data were processed

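The authors deposited 1 log value per probe set and treatment, read here as log2; the base is not stated. Per the labels, 4 chips (2 RNA extractions, each in duplicate) stand behind each column. How they were combined, and the image analysis and scaling, are not given in the sources used here. Columns have means near 0.

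Names came from the platform annotation and were brought up to date in RefSeq through the Entrez number (12394 of 12443 matched). The filter kept probe sets with at least 1 column at or above the median of the table (-0.18). From each column the median of its kept probe sets was subtracted, and a gene with several probe sets got their mean. Without the filter that median was taken over all non-control probe sets, which shifts every difference by the same amount. Chromosome neighbours came from RefSeq, Release 6; no coordinates are printed. The number of arrays limits the precision.

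Members, gene lists and the thresholds of 1.5-fold and 2-fold were chosen with earlier results of these data known. Lists hold named genes only: annotation numbers were taken out, some wrong members removed, and 4 lists (respiratory chain, its paralogs, P450, transferases) added after values were seen. Genes named were the 30 highest and 30 lowest outside digestion, muscle and immunity, the 6 largest differences, the extremes and the 1.5-fold members of each list, genes whose wild-type column lay outside the others, genes near a threshold, adjacent genes, and genes with disagreeing probe sets. Others given as values, such as paralogs beside a named gene, were chosen after their values were seen. Tools were Python 3.11.15, numpy 2.4.6, pandas 2.3.3, statsmodels 0.14.6 and matplotlib 3.10.9. The calculation was tested on simulated data.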

Additional observations from a re-analysis of the deposited data

How the results depend on the processing

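No paired analysis was possible because each group has 1 column, and for the same reason no replicate could be left out. The counts of genes past 1.5-fold and 2-fold stayed within 1.5 times under columns as deposited, quantile normalization, no filter, the filter at the 75th percentile, the brightest probe set and removal of the level trend. They moved under other settings. A 3-fold threshold gave 0 higher and 5 lower genes. Counting probe sets, unnamed ones included, gave 8 at least 2-fold higher. Without digestion, muscle and immunity genes, 13 were 2-fold lower, 7 were 1.5-fold higher and 41 were 1.5-fold lower. Subtracting the foreign control level on the linear scale, chosen after seeing the data as was the previous setting, gave 6 genes past 2-fold higher, and past 1.5-fold 32 higher and 106 lower, since it widens differences of weak genes by its construction. Of the list medians, digestion became -0.59 under the stricter filter and -0.62 with subtraction, and P450 -0.37 and -0.20. Medians near 0 changed sign in 16 combinations of list and setting, for example insulin and TOR (-0.02 with columns as deposited) and takeout and yellow families (0.03 under the stricter filter), so no direction is read from them. Quantile normalization left 53 of the 62 genes 1.5-fold lower, and Ald1 and Had1 were among those that left.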
